A study of Homo sapiens with 2 samples.

Results

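The type II and type I keratin gene clusters were examined for regions bound by MLL3 and by GRHL2 in KYSE510 cells, a human line established from a squamous cell carcinoma of the esophagus. Members were all regions of the authors' lists whose summit, the base of highest signal, lay on chromosome 12 from 52560000 to 53360000 or on chromosome 17 from 38800000 to 39800000 (hg19). These windows held 23 of the 12150 MLL3 regions and 121 of the 152864 GRHL2 regions on the assembled chromosomes. Chromatin of cells grown in RPMI-1640 with serum, with no other treatment named, had been fixed, sonicated and precipitated with an antibody against MLL3 for 1 library and against GRHL2 for the other. Regions had been called against input, the chromatin that was not precipitated. Cells with MLL3 or GRHL2 silenced by siRNA, which the design text mentions, were not analysed here. There was no replicate, so no value below has an error between replicates, and nothing below was tested.

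Keratins are the intermediate filament proteins of epithelia and work as pairs of a type II and a type I chain. Type II genes lie together on chromosome 12 and type I genes on chromosome 17, apart from KRT18, a type I gene next to the type II gene KRT8. KRT5 and KRT14 form the filaments of basal cells in stratified epithelia such as the esophagus. KRT6A, KRT16 and KRT17 are induced in wounded and hyperproliferative epithelium, KRT8 and KRT18 are the pair of simple epithelia, and keratins such as KRT1, KRT4, KRT10 and KRT13 appear as stratified cells differentiate. GRHL2, of the Grainyhead-like family, is a transcription factor that maintains epithelial genes, and MLL3 (KMT2C) is a histone methyltransferase that works at enhancers. Regions of binding carry no RNA level, so the labelled cell type could not be checked against keratin expression.

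The positions of the 7 named genes are points given to the kb in hg19 with the definition of the windows and are called anchors here. KRT6A (52881 kb), KRT5 (52908 to 52914 kb), KRT8 (53291 kb) and KRT18 (53343 kb) are on chromosome 12. KRT14 (39739 to 39743 kb), KRT16 (39766 kb) and KRT17 (39776 to 39781 kb) are on chromosome 17. For KRT6A, KRT8 and KRT16, which are read from the minus strand, the single point is the end of the gene, so the gene and its start lie above it and a distance upward from it overstates the distance from the gene. The other keratins were placed between anchors by gene order alone, from RefSeq on GRCh38.p14, so no region was assigned to them one by one, and exons, introns and promoters were not annotated. In that order 55 keratin genes lie from KRT80 to KRT18 and from KRT222 to KRT17. With 10 kb on either side of the anchors, the windows fell into 6 stretches. The basal and activated part had a stretch around KRT6A and KRT5 and another from KRT14 to KRT17. KRT8 and KRT18 made up the simple part, and the stretch between KRT5 and KRT8 the differentiation part, with 12 keratin genes from KRT71 to KRT78, KRT1, KRT2 and KRT4 among them. The name of this part is only partly apt: it also holds KRT71 to KRT74 of the hair follicle, and the type I differentiation keratins KRT10 and KRT13 lie on chromosome 17 outside it. The other 2 parts are incomplete as well. The basal keratin KRT15, the activated keratins KRT6B and KRT6C and the simple keratins KRT7 and KRT19 lie outside them. The other stretches were chromosome 12 from KRT80 to KRT6C (11 keratin genes, among them KRT7 and hair keratins) and chromosome 17 from KRT222 to KRT9 (25 keratin genes, among them KRT10, KRT13, KRT15 and KRT19, and 34 keratin-associated protein genes of hair).

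Fold enrichment, the ratio of signal to local background at the summit, and the −log10 q-value, a p-value corrected for many regions, are the authors' deposited values. Each describes a region within its own list. The lowest −log10 q was 2.07 in the MLL3 list and 0 in the GRHL2 list, so the lengths of the lists cannot be compared. GRHL2 regions with a −log10 q of 2 or more are therefore given on their own as well and are called the stricter GRHL2 regions. The lists give no read counts, so depth is unknown, and a gene without a region is only a gene without a listed region.

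KRT5, the type II keratin of basal cells, had the highest MLL3 fold among regions with a summit within 10 kb of the 7 genes. It also had the highest GRHL2 fold by that distance, but a GRHL2 region of fold 55.1 lay 10.1 kb above the single anchor of KRT8, nearer to that gene than the distance says. Within 10 kb of KRT5 lay 3 MLL3 and 3 GRHL2 regions. The MLL3 summits were 1.23, 2.66 and 4.56 kb beyond the upper anchor, which is the side of the gene's start, since KRT5 is read from the minus strand. Their fold enrichments were 12.6 (chr12:52914965-52915858), 6.07 (chr12:52916402-52916781) and 5.47 (chr12:52918412-52918857), so the MLL3 region nearest to the gene was the highest. It ranked within the top 11.8% of the MLL3 list. A GRHL2 region of 3560 bp (chr12:52913668-52917227) with a fold of 19.4 and a −log10 q of 56.0 reached from 0.332 kb below the upper anchor across the 2 nearer MLL3 regions. It ranked within the top 1.97% of the GRHL2 list. Its summit was 517 bp from that of the higher MLL3 region, so both factors were listed over the same stretch but with separate summits. The third MLL3 region overlapped no GRHL2 region, although a weak one (fold 2.40, −log10 q 0.552) had its summit 442 bp away. A further GRHL2 region, of fold 4.02 and −log10 q 3.28, lay between the anchors of the gene itself.

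The bases upstream of the KRT5 start are shown because this GRHL2 region extended over the upper anchor, where the gene begins, whereas the MLL3 regions began 0.965 kb beyond it. The sequence is RefSeq's (GRCh38.p14, minus strand, chr12:52520395-52520644, a build whose positions cannot be set against those above), and it gives the 250 bases before the start, 5′ to 3′, with ACCGGT in capitals:
KRT5 upstream: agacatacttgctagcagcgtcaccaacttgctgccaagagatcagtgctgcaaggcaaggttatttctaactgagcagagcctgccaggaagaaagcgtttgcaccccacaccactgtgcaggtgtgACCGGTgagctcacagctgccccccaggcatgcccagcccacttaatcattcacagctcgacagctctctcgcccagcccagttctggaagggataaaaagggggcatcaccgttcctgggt
Grainyhead-like factors are known to prefer a palindromic site with a CCGG or similar core. The 8-base form AACCNGTT, searched on both strands, was in 1.73% of 35116 promoter windows of 300 bases and not in that of KRT5. The shorter ACCGGT, its own reverse complement, was chosen after the sequence had been read. It was in 1.83% of the windows and occurred once in KRT5, from 122 to 117 bases before the start. These are matches of letters and not mapped sites. Of the 7 genes 2 had a promoter in the table used, KRT5 and KRT8. That of KRT8 is not shown, because the start of KRT8 in hg19 was not among the positions used.

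KRT6A, the keratin of activated epithelium next to KRT5, had no MLL3 summit within 10 kb of its anchor. The nearest was 34.2 kb above it and was the one beside KRT5. The 2 GRHL2 regions within 10 kb had folds of 2.80 and 2.65 and a −log10 q of 0.757 each, which is a q above 0.05. The nearest summit of a stricter GRHL2 region was 29.4 kb away, inside KRT5. KRT5 and KRT6A thus differed in what was listed beside them, although they are neighbours in gene order. KRT6B and KRT6C come just before KRT6A in that order, and any part of reads that match several KRT6 genes was not tested.

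KRT14, the partner of KRT5 in basal cells, had no region of either factor within 10 kb. The nearest MLL3 summit was 34.6 kb away and the nearest GRHL2 summit 22.8 kb away, and that GRHL2 region was weak (fold 2.23, −log10 q 0.277). The genes of the KRT5 and KRT14 pair therefore had 6 listed regions within 10 kb in all at KRT5 and 0 at KRT14.

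KRT16 and KRT17, the type I keratins of activated epithelium, were listed unequally. A GRHL2 region of fold 2.23 (chr17:39765625-39766086, −log10 q 0.277) covered the KRT16 anchor, and another of fold 3.62 and −log10 q 2.86 (chr17:39771749-39772116) had its summit 5.93 kb above it. The nearest MLL3 summit was 11.6 kb above the KRT16 anchor, on the side of the gene's start, so its distance from the gene is shorter and may be under 10 kb. KRT17 held that MLL3 region between its anchors (chr17:39777274-39777759), with a fold of 9.39, a −log10 q of 21.5 and a rank within the top 22.7% of the MLL3 list. It overlapped no GRHL2 region, and the nearest GRHL2 summit was 5665 bp away. Of KRT5, KRT14 and KRT17, the genes with 2 anchors, KRT17 was the only one with an MLL3 summit between them, and the 2 GRHL2 regions within 10 kb of it had folds of 3.62 and 3.11. RefSeq lists 6 pseudogenes named after KRT16 and 8 after KRT17. How reads that match several copies were treated is not given in the sources used here, and their part in these listings was not tested.

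KRT8 and KRT18, the pair of simple epithelia, had GRHL2 summits and no MLL3 summit within 10 kb of either anchor. Beside KRT18 a GRHL2 region of fold 5.80 (chr12:53342403-53343911, −log10 q 6.93) covered the anchor, with its summit 0.138 kb below it. A stronger one of fold 10.6 (chr12:53339115-53340125, −log10 q 21.6) had its summit 3.57 kb below the anchor, and a weak one of fold 2.83 lay 2.53 kb above it. A weak region of fold 2.40 lay 1.71 kb below the KRT8 anchor. Above it came stricter regions of fold 4.38, 5.57 and 55.1, with summits at 53299085, 53300332 and 53301136. The last (chr12:53300637-53302642, −log10 q 285) had its summit just past 10 kb from this point, on the side of the gene's start, so it is closer to KRT8 than that distance says. It ranked within the top 0.520% of the GRHL2 list. It was the strongest GRHL2 region in either window without MLL3, and the nearest MLL3 summit was 17669 bp away.

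MLL3 was listed between KRT8 and KRT18, apart from the GRHL2 region of fold 55.1. The 2 MLL3 regions there had folds of 7.20 (chr12:53318682-53319485) and 5.14 (chr12:53320165-53320403), and both overlapped a single GRHL2 region of 2726 bp with a fold of 4.59, within the top 9.68% of the GRHL2 list. In their own list the MLL3 regions ranked within the top 39.7% and 77.3%. Their summits were 482 and 1019 bp from its summit. The simple part thus had its highest GRHL2 fold and its MLL3 regions at separate places. In RefSeq, KRT8 has long transcripts that reach KRT18, so the space between both anchors counts as part of the KRT8 gene there. RefSeq also lists 52 pseudogenes named after KRT8 and 68 after KRT18, whose part in these listings was not tested.

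**Figure D1:**
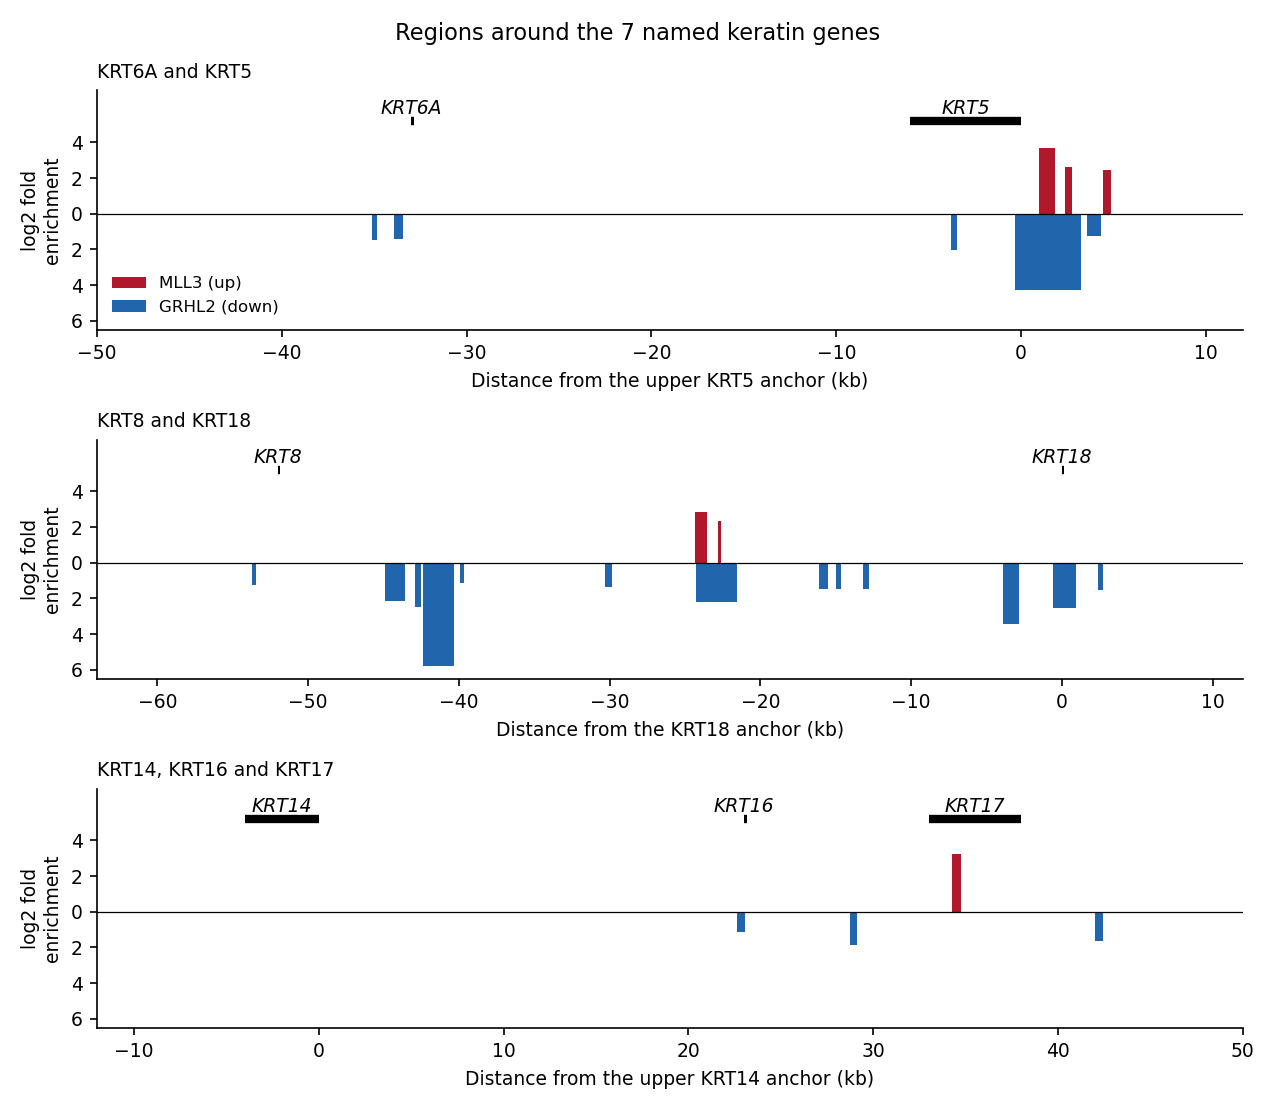
MLL3 regions (red, upward) and GRHL2 regions (blue, downward) around the 7 named genes, as log2 fold enrichment against distance in kb from an anchor; each bar spans its region and black marks are the gene anchors. KRT5 has 3 MLL3 bars and a wide GRHL2 bar on the side of its start, and KRT14 has none. KRT17 has an MLL3 bar with no GRHL2 bar under it. The GRHL2 bar of fold 55.1 beyond the KRT8 anchor has no MLL3 bar over it.

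The differentiation part, between KRT5 and KRT8, held 4 MLL3 and 25 GRHL2 regions in 357.0 kb, and 10 of the latter were stricter ones. All 4 MLL3 regions overlapped a GRHL2 region, as did 85.0% of the whole MLL3 list. With the stricter GRHL2 regions it was 3 of the 4, against 68.7% of the whole MLL3 list. The highest MLL3 region, of fold 11.0 (chr12:53253715-53254312), lay on the highest GRHL2 region of the part (fold 33.0, −log10 q 114), with summits 58 bp apart. Around it, 6 stricter GRHL2 regions, this one included, with folds from 3.35 to 33.0 had their summits within 18.7 kb, a run singled out after its values were seen. It lies toward the KRT8 end, where the gene order has KRT79 and KRT78. The other 3 MLL3 regions had folds of 9.29, 4.41 and 5.94 on GRHL2 regions of fold 2.95, 3.63 and 3.91. A GRHL2 region of fold 15.0 (chr12:53049138-53050400) had no MLL3 region, the nearest MLL3 summit being 16783 bp away. No MLL3 summit was listed over 188 kb from 53066351 to 53253998, and no stricter GRHL2 summit over 185 kb of nearly the same interval, from 53066297 to 53251580.

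The strongest regions of both factors in the windows lay in the stretch from KRT80 to KRT6C, at its lower end, where KRT80 and KRT7, a keratin of simple and glandular epithelia, come first in gene order. There 7 MLL3 regions had their summits within 67.5 kb, from 52569958 to 52637457, with folds from 5.74 to 24.9. Each overlapped a GRHL2 region, beside 85.0% of all MLL3 regions. Of the 8 MLL3 regions of the whole stretch, 7 overlapped a stricter GRHL2 region, against 68.7% of the whole MLL3 list. The MLL3 region of fold 24.9 (chr12:52569620-52570245), the highest in either window and within the top 1.65% of its list, lay on a GRHL2 region of fold 5.71, within the top 6.98% of the GRHL2 list, with summits 30 bp apart. The GRHL2 region of fold 103 (chr12:52609105-52613206), the highest of its kind in the windows and within the top 0.0798% of its list, held 2 MLL3 regions of fold 9.42 and 18.6. The summit of the stronger was 25 bp from that of GRHL2, and that of the weaker 1739 bp. The next highest GRHL2 regions of this stretch had folds of 61.7 (chr12:52585169-52586725) and 33.9 (chr12:52636928-52638545), and the MLL3 regions on them had folds of 15.4 and 17.2, with summits 96 and 34 bp apart.

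The rest of that stretch held fewer MLL3 regions than its lower end. A further MLL3 region, of fold 8.29 on a GRHL2 region of 11.3, had its summit at 52674451. No further MLL3 summit came before the one beside KRT5, a gap of 241 kb and the longest inside the chromosome 12 window. Gaps elsewhere on the chromosome were not measured, and the whole MLL3 list averaged 0.406 regions per 100 kb. The hair keratins KRT81 to KRT86, KRT75 and the KRT6 genes precede KRT5 in gene order. Stricter GRHL2 summits were missing over 171 kb of it, and the GRHL2 regions just before that gap had folds of 5.13 and 3.65.

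**Figure D2:**
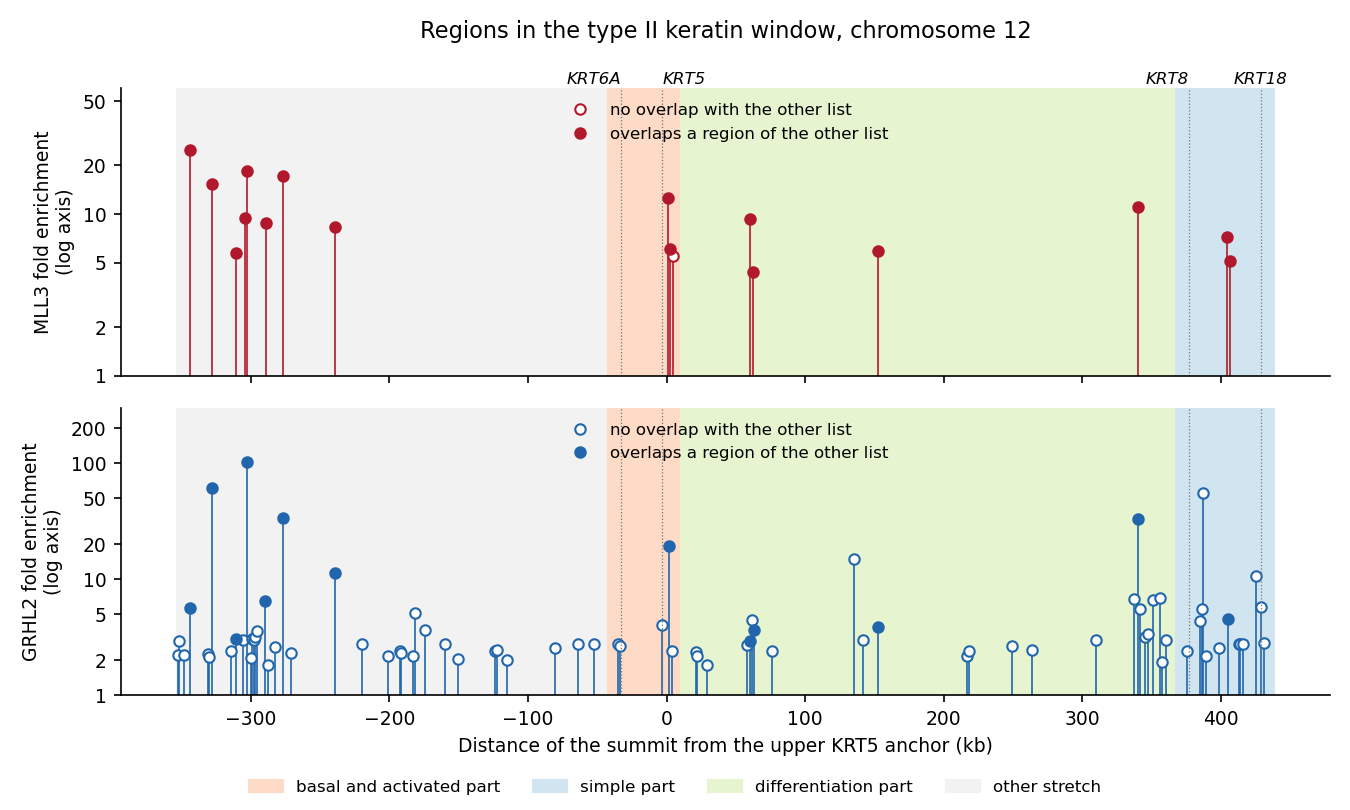
Fold enrichment (log axis) of each MLL3 (top) and GRHL2 (bottom) region in the chromosome 12 window against the distance of its summit from the upper KRT5 anchor in kb; filled points overlap the other list, dotted lines mark the gene anchors and shading the parts. High points of both factors stand at the left end. Just to the right of the KRT8 anchor a single GRHL2 point reaches 55.1. The MLL3 points farther on, between the anchors of KRT8 and KRT18, reach 7.20.

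Chromosome 17 below KRT14 had the lowest MLL3 density of the 6 stretches, 0.538 regions per 100 kb, beside 0.406 over all chromosomes. Its 5 MLL3 regions in 929.0 kb had folds of 11.7, 17.7, 3.25, 3.51 and 4.70 in order of position, and 345 kb without an MLL3 summit separated the first from the second. The region of fold 11.7 (chr17:39112948-39113433) lay on a GRHL2 region of 17.5 with summits 2 bp apart, and a second GRHL2 region of 17.5 followed 1295 bp away. The MLL3 region of fold 17.7 (chr17:39457540-39458185, −log10 q 63.7), within the top 4.72% of its list, lay on a GRHL2 region of fold 2.88 and −log10 q 1.50. It stood in the longest interval of the windows without a stricter GRHL2 summit, 382 kb from 39114523 to 39496289. The keratin-associated protein genes and hair keratins are in the middle of this stretch in gene order.

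KRT13, KRT15, KRT19 and KRT9 come last in gene order before KRT14. In that direction lay the highest GRHL2 region of the window, with a fold of 23.7 (chr17:39692062-39692897, −log10 q 123), and the nearest MLL3 summit was 5994 bp away. That MLL3 region had a fold of 4.70 and overlapped no GRHL2 region. Farther from KRT14, GRHL2 regions of fold 14.2 (chr17:39498209-39499158) and 12.3 (chr17:39573691-39574381) had no MLL3 region either. Of the 16 stricter GRHL2 regions of the chromosome 17 window, 2 overlapped MLL3 (12.5%, exact Clopper-Pearson 95% interval 1.55 to 38.35%), against 24.5% of the whole list, which the interval holds.

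**Figure D3:**
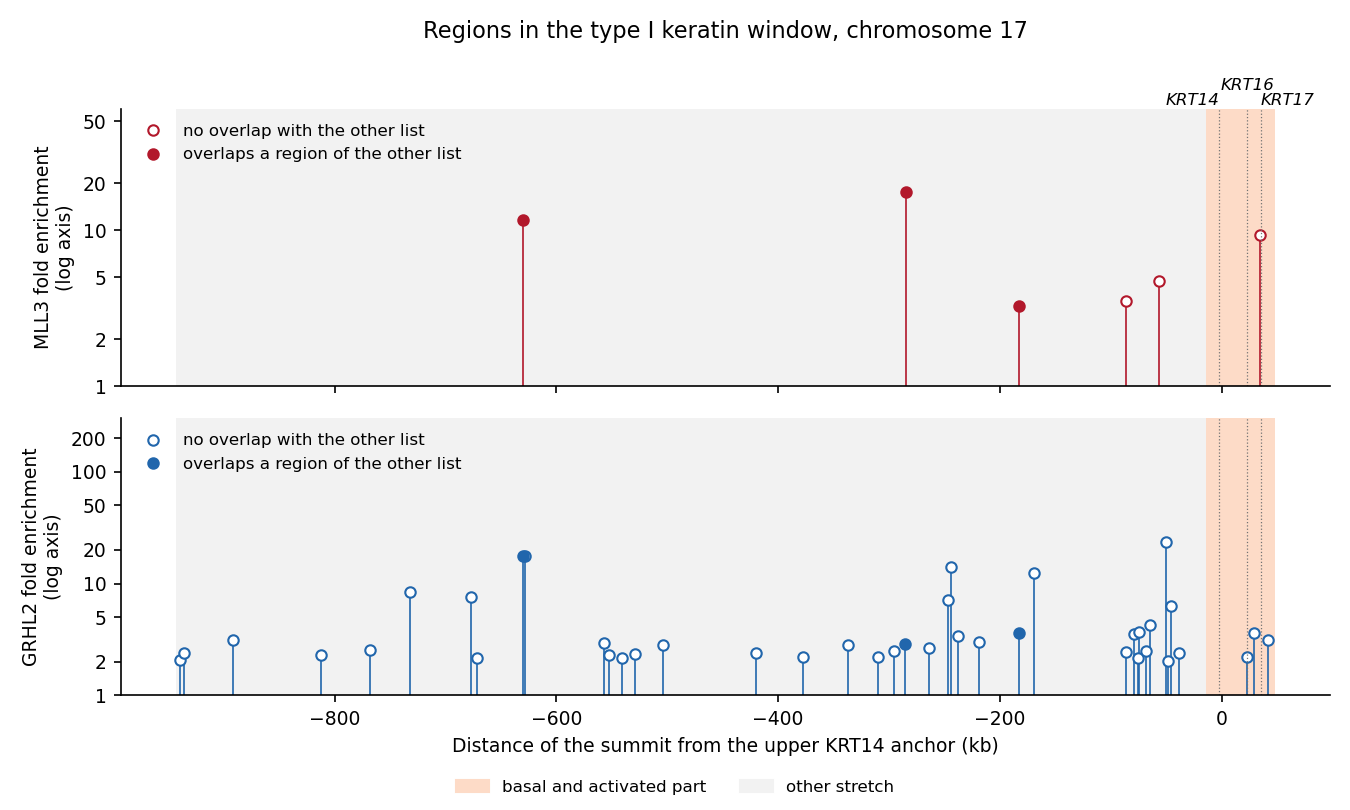
Fold enrichment (log axis) of each MLL3 (top) and GRHL2 (bottom) region in the chromosome 17 window against the distance of its summit from the upper KRT14 anchor in kb, with points, lines and shading as for chromosome 12. The 6 MLL3 regions are spread along the window, none stands at KRT14, and the highest GRHL2 point (fold 23.7) is an open one.

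Both factors were listed in every part, at different densities. Around KRT6A and KRT5 there were 5.66 MLL3 regions per 100 kb (3 regions) and 3.77 stricter GRHL2 regions (2 regions). The simple part had 2.78 MLL3 (2 regions) and 8.33 stricter GRHL2 regions per 100 kb (6 regions). In the differentiation part the values were 1.12 and 2.80 per 100 kb. The stretch from KRT14 to KRT17 had 1 region of each kind, 1.61 per 100 kb. Over all chromosomes, between the outermost regions, the lists averaged 0.406 MLL3 and 1.01 stricter GRHL2 regions per 100 kb, below the value of each of the 6 stretches. These are counts of 1 to 15 regions, and their differences were not tested. The highest GRHL2 fold was 19.4 in the basal and activated part, 33.0 in the differentiation part and 55.1 in the simple part, and the highest MLL3 folds were 12.6, 11.0 and 7.20. Each of these is a single region. The medians of the same parts were 4.02, 6.10 and 5.68 for the stricter GRHL2 regions and 7.73, 7.61 and 6.17 for MLL3. The simple part holds only KRT8 and KRT18, so its values do not stand for all simple keratins. In the stretch from KRT80 to KRT6C, which holds KRT7, the highest folds were 103 for GRHL2 and 24.9 for MLL3.

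**Figure D4:**
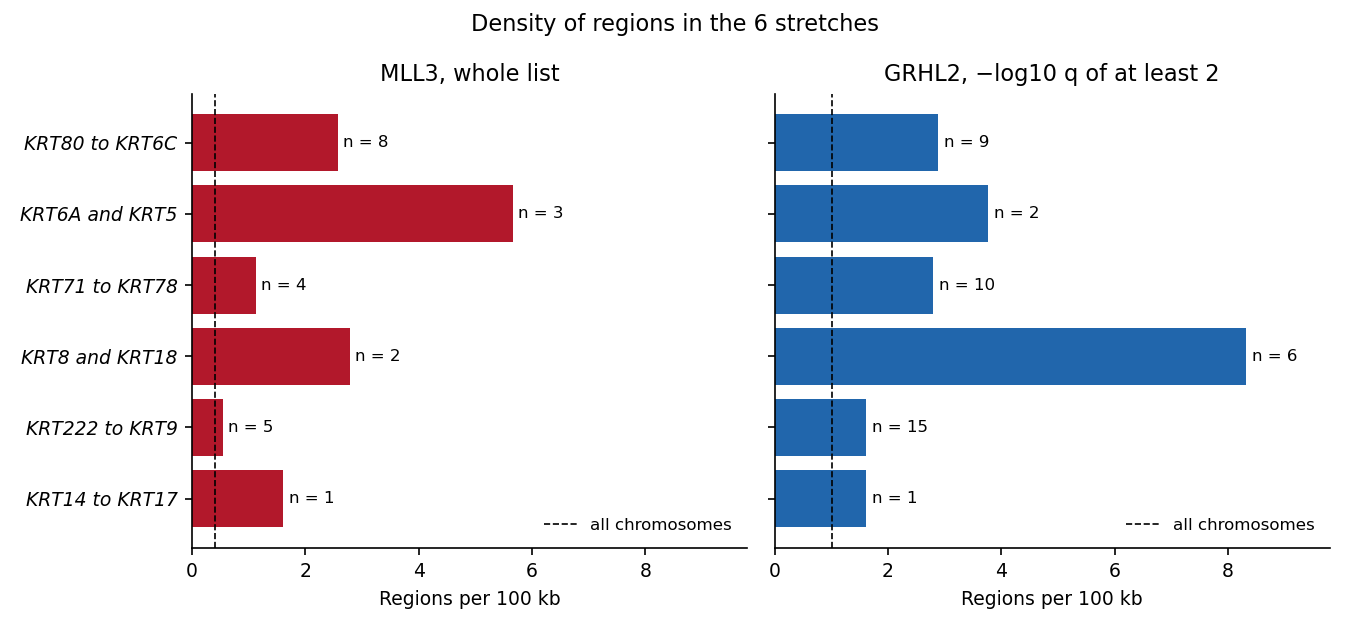
Regions per 100 kb in the 6 stretches, for MLL3 (left) and for the stricter GRHL2 regions (right); bars give the density, the number at each bar the count of regions, and the dashed line the density over all chromosomes. The longest MLL3 bar is that of KRT6A and KRT5 (5.66) and the longest GRHL2 bar that of KRT8 and KRT18 (8.33).

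Overlap between the lists was near that of the whole genome for MLL3. Of the 23 MLL3 regions, 19 overlapped a GRHL2 region by at least 1 bp (82.6%, exact Clopper-Pearson 95% interval 61.2 to 95.05%), against 85.0% of all MLL3 regions. With the stricter GRHL2 regions it was 16 of 23 (69.6%, interval 47.1 to 86.8%), against 68.7% of the whole list. The intervals cover the counting of regions only. By window, 16 of 17 MLL3 regions overlapped on chromosome 12 (94.1%, interval 71.3 to 99.9%) and 3 of 6 on chromosome 17 (50%, interval 11.8 to 88.2%). These intervals meet only from 71.3 to 88.2%, and the difference between the windows was not tested. The 4 MLL3 regions without GRHL2 were the outermost beside KRT5, that in KRT17 and the 2 below KRT14 with folds of 3.51 and 4.70.

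Of the 121 GRHL2 regions, 43 (35.5%, interval 27.0 to 44.8%) were stricter ones, against 19.7% of the whole list, and 71 (58.7%) had a q above 0.05, against 68.9%. MLL3 overlapped 16 of the 121 (13.2%, interval 7.75 to 20.6%), against 6.15% of all GRHL2 regions. Among the 43 it overlapped 13 (30.2%, interval 17.2 to 46.1%), against 24.5%, a value within the interval. A fold of at least 5 was reached by 27 of the 121 GRHL2 regions, against 8.47% of the list, and by 19 of the 23 MLL3 regions, against 79.3%. The median fold was 2.80 for GRHL2 and 8.77 for MLL3, beside 2.77 and 6.49 over the whole lists. Regions that lie close together in a cluster are not independent, so these shares only describe the windows.

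Most of the strongest regions of the windows were shared, as were most such regions of the whole lists. At limits set after the values had been seen, 4 of the 6 GRHL2 regions with a fold of at least 20 overlapped MLL3, against 69.5% of such regions in the whole list, and 10 of the 11 MLL3 regions with a fold of at least 9 overlapped GRHL2, against 94.7%. The exceptions were the GRHL2 regions beyond the KRT8 anchor and below KRT14 and the MLL3 region in KRT17.

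In the 19 overlapping MLL3 regions, the fold of MLL3 and that of its GRHL2 partner had a Spearman rho of 0.475, a description over sites that share 1 pair of libraries and in part the same GRHL2 region. Summits were 2 to 1739 bp apart, with a median of 111 bp, and 9 of 19 pairs were within 100 bp. The same distances over all overlapping MLL3 regions are not given here, so these values do not set the windows apart. The 3 GRHL2 regions that each overlapped 2 MLL3 regions were also the 3 widest of the 121. They had 4102 bp in the stretch of KRT80, 3560 bp at KRT5 and 2726 bp between the anchors of KRT8 and KRT18. A wider region has more room to overlap several. The next widest, with 2006 bp, was the region of fold 55.1 beyond the KRT8 anchor, which overlapped none.

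**Figure D5:**
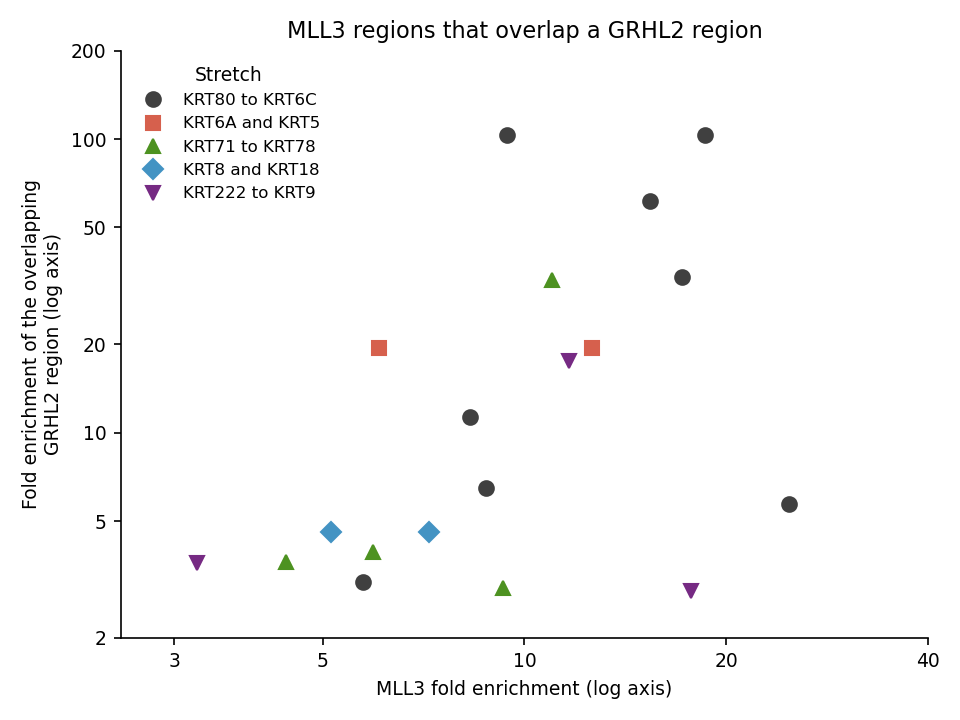
Fold enrichment of each of the 19 MLL3 regions that overlap GRHL2 (horizontal, log axis) against that of its GRHL2 partner (vertical, log axis), with symbols for the stretch. The points at the lower right are the MLL3 regions of fold 24.9 and 17.7, whose GRHL2 partners have folds of 5.71 and 2.88.

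The edges of the windows cut through listed ground on chromosome 12. The GRHL2 summit just outside the upper end was 0.130 kb beyond it (fold 3.20), and the last inside was 14.5 kb before it (fold 2.83). The MLL3 summits just outside were 1.99 kb below the lower end (fold 7.20) and 5.75 kb above the upper end (fold 6.38), beside 24.9 and 5.14 for the outermost MLL3 regions inside.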

How the data were processed

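Each antibody had 1 library of KYSE510 chromatin. For both, the authors deposited a list of regions called against input, and the submitters' processing notes name BWA, Picard, MACS2, deepTools and hg19. The sources used here do not give the settings of these tools. For each region, the fold enrichment (a ratio), the −log10 p and the −log10 q are values the authors deposited, as is a score that repeats one of these and was not used. The MLL3 list ends near a q of 0.01, while the GRHL2 list holds regions down to a −log10 p of 1.30. Lines on unplaced contigs (46 for MLL3, 345 for GRHL2) were not used.

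Summits were taken as the start plus the summit offset of the file, and coordinates are 1-based in hg19. Overlap means at least 1 bp. Regions were counted and joined with pandas 2.3.3, and exact intervals came from scipy 1.17.1. The overlap code was tested on simulated lists. Text names the 7 genes, any MLL3 region, and GRHL2 regions that overlap MLL3, lie within 10 kb of a named gene or are among the 3 highest of a stretch; others were singled out after their values were seen. Tried alternatives were stricter lists (−log10 q from 2 or 5 upward, folds from 5 upward), overlap of 50% of the shorter region, summits within 100 bp, and flanks of 5 or 20 kb. The members and lists were chosen with earlier results of these data known.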

Additional observations from a re-analysis of the deposited data

How the results depend on the processing

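Of 50 alternative settings, 33 kept the count within 1.5 times or the value within its interval or equal, and 17 moved it. Every count and highest fold of the 3 parts stayed so with flanks of 5 or 20 kb. Stricter lists mainly shortened the GRHL2 list: its 121 regions came to 43 from a −log10 q of 2 upward and 27 from a fold of 5 upward, with 3 and 1 left in the basal and activated part, 6 and 4 in the simple part and 10 and 6 in the differentiation part. The share of MLL3 regions that overlapped GRHL2 was 57.9% with both lists kept from a fold of 5 upward and 39.1% for summits within 100 bp. The share of GRHL2 regions with MLL3 was 30.2% with the −log10 q limit, 33.3% with the fold limit and 7.44% for summits within 100 bp. Whole-list shares under the fold limit and the summit distance are not given here. The values under those settings therefore do not show whether the windows differ from the rest of the lists. The median fold was 9.39 for MLL3 from a −log10 q of 5 upward and 6.28 for GRHL2 from 2 upward. Without the dense tracts on chromosomes 1 and 9, the whole-list shares were 83.4% of MLL3 and 5.77% of GRHL2 regions. No paired analysis was possible because there was a single library per antibody. Depth is unknown, so a site missing from a list may still be bound.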
